A study of Homo sapiens with 6 samples.

Results

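The replication fork and chromatin assembly genes are 40 genes whose proteins copy DNA at the moving fork and load the sliding clamp. Others join the lagging strand, stabilise stalled forks, mark origins, and wrap the new DNA in histones. The 40 genes were chosen by name, as rows of the authors' deposited table whose gene name equals a listed symbol. Of the 40, 39 were found there among 6831 genes. MOLM-13 is a human cell line established from acute myeloid leukaemia, carries a KMT2A fusion and is labelled wild type. The cells had been cultured for 24 h with 50 nM DEG-35, a degrader of the transcription factor IKZF2 and the kinase CK1α according to the study, or with the solvent DMSO. RNA-seq was done on 3 libraries per group, and the question of the study was which genes DEG-35 regulates.

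The table is the authors' own comparison and lists genes with an adjusted p below 0.05. Each row gives the gene's log2 fold change with a raw and an adjusted p. There are no counts, levels or values per library, so sequencing depth is unknown, no member can be shown sample by sample, and the labelled cell type could not be checked against marker levels. Its header does not name the numerator. Directions here take DEG-35 as the numerator and DMSO as the denominator, and would all turn round under the opposite order. Errors (implied SE) were worked back from the fold change and its p, and "interval" means the 95% interval they give. Nothing in the labels tells separate cultures from repeat libraries of 1 culture, so the p-values measure only the spread between these libraries, which may be technical. In a bulk sample, fewer cells copying their DNA and less of a transcript in each cell cannot be told apart.

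At a replication fork, the helicase made of the MCM ring, CDC45 and GINS unwinds the double strand. Polymerase alpha with primase lays down primers, polymerase epsilon extends the leading strand and polymerase delta the lagging strand, both held by the PCNA clamp that RFC loads. Transcription of many of these genes is raised at the entry into S phase by E2F factors, and repressed in resting cells by the DREAM complex. The histone chaperones ASF1 and CAF-1 hand new histones H3 and H4 to the daughter strands.

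All 39 listed members were lower with DEG-35 than with DMSO. Their median log2 fold change in the authors' deposited table was -1.70, a 3.26-fold lower level, with quartiles at -1.90 and -1.42. Over all listed genes the median was -0.19, and over the 3613 listed genes that were lower it was -0.45. Of the members, 97.5% were listed, each of them as lower. Of the 15064 genes that the adjusted p-values imply were tested, 45.3% were listed and 24% were listed as lower. A fall of at least 1 on the log2 scale was found for 33 of the 40 members (82.5%), and for 4.08% of all tested genes. The members were chosen with earlier results of these data known, so these shares describe the list and carry no test. The member with the largest adjusted p was CHTF18, at 1.71e-06 in the authors' deposited table.

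The 39 values were spread over 1.81 on the log2 scale, and the intervals at the ends did not overlap. ASF1B, the histone chaperone, was lowest at -2.43 ± 0.0777 (implied SE) in the authors' deposited table, and POLE3, a small histone-fold subunit of polymerase epsilon, least lowered at -0.62 ± 0.0615. Ranked from the most negative of the 6831 listed fold changes, ASF1B stood at place 70 and POLE3 at place 1197. A fall of at least 2 was listed for 8 members, and for 179 genes in the whole table. The 8 were ASF1B, GINS2, GINS1, ORC6, DSCC1, CLSPN, ORC1 and CHAF1B, which come from chromatin assembly, the helicase, origin recognition, clamp loading and the fork checkpoint, with no polymerase subunit among them. A further 25 lay between -1 and -2. The remaining 6 were RPA1, RFC1, PRIM2, POLD2, RPA2 and POLE3, from 5 different complexes. For all 33 members with a fall of at least 1, the whole interval lay below -1.

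**Figure D1:**
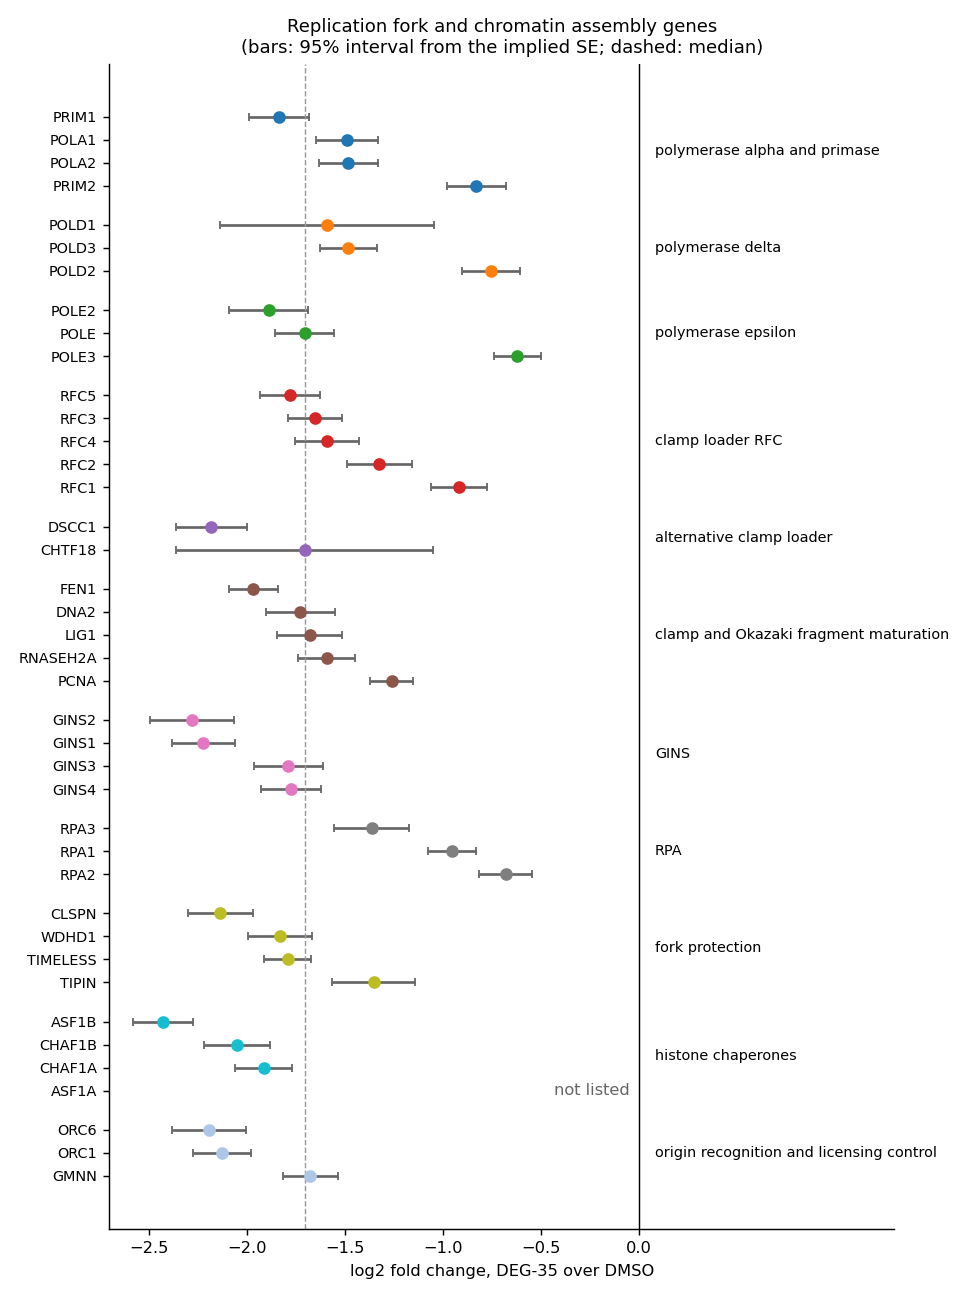
Log2 fold change of each member, DEG-35 over DMSO (x axis), in the authors' deposited table, by role; bars are 95% intervals from the implied SE and the dashed line is the members' median of -1.70. All 39 listed members lie left of 0, and ASF1A was not listed. By the median of each role, the GINS, origin and histone chaperone genes lie farthest and the RPA genes nearest.

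Promoter sequences are shown because the members moved together. RefSeq windows of GRCh38.p14, from 250 bases before each start site to the 50 bases that begin at it, were at hand for 34 of the 40 members. The windows of the 3 members with the smallest adjusted p among them, ASF1B, FEN1 and TIMELESS, are given 5′ to 3′ on the gene's strand. Capitals mark letters searched on both strands for E2F (TTTCCCGC, TTTCGCGC, TTTGCCGC or TTTGGCGC), for NF-Y (CCAAT) and for the cell cycle element CHR (TTTGAA or TTCGAA).
ASF1B, chr19:14136540-14136839 (- strand): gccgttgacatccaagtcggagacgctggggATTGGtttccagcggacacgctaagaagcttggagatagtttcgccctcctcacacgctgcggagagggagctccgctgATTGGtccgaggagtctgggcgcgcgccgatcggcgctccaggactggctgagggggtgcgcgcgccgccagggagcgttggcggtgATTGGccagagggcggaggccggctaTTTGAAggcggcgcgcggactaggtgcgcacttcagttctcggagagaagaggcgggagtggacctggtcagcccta
FEN1, chr11:61792661-61792960 (+ strand): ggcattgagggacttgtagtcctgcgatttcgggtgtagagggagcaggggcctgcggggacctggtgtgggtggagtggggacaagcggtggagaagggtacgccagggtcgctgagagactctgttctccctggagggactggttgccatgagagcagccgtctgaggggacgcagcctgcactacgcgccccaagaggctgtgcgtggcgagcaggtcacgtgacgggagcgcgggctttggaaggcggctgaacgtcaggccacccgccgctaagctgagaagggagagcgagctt
TIMELESS, chr12:56449377-56449676 (- strand): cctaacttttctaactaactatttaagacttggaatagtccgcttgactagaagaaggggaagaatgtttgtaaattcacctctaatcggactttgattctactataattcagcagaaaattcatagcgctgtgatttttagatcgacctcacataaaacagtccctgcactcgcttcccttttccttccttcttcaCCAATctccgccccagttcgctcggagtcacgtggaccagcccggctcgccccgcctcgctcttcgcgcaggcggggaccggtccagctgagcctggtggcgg

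None of these 3 windows holds the E2F letters. The ASF1B window has 3 NF-Y matches and 1 CHR match, the TIMELESS window has 1 NF-Y match, and the FEN1 window has no match of any kind. Over all members with a window, E2F letters stood in 13 of 34 (38.2%), against 3.99% of the 27305 genes with a window in the RefSeq table. Among listed genes with a window found under the same symbol, 10.2% of 2763 lower genes and 5.04% of 2224 higher genes held them. NF-Y letters stood in 21 of 34 members (61.8%) and in 39.7% of all genes. They stood in 45.8% of the same listed lower genes and 42.2% of the higher ones. CHR letters stood in 2 of 34 members (5.88%) and in 19.5% of all genes, with 17.6% of the listed lower and 15.9% of the listed higher genes. A gene counts when any of its windows has a match, and 6 members have more than 1 window. A match is a run of letters and shows no binding, and a window without one says nothing of the factor.

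Members with and without E2F letters had overlapping values. The list was chosen with earlier results known, so this is no test of the letters. For the 13 with them the median log2 fold change in the authors' deposited table was -1.68, with a range of -2.28 to -1.26. For the 20 listed members whose windows lack these letters the median was -1.74, with a wider range of -2.43 to -0.62. Of the 14 matches, 11 began in the 100 bases before the start site and 1 after it. The stretches below show the matches (capitals, either strand, GRCh38.p14) in the subunits of polymerase alpha, polymerase epsilon and GINS, where more than 1 subunit has a match, with those of PCNA and TIPIN. In TIPIN 2 matches on opposite strands overlap in a palindrome, in 1 of its 2 windows.
POLA1, chrX:24693761-24693808 (+ strand): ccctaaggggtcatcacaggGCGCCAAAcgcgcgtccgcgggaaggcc
POLA2, chr11:65261889-65261936 (+ strand): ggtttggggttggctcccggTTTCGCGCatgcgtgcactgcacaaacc
POLE, chr12:132687333-132687380 (- strand): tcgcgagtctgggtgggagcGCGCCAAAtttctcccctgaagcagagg
POLE2, chr14:49688192-49688239 (- strand): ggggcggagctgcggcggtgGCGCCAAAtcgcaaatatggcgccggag
GINS1, chr20:25407658-25407705 (+ strand): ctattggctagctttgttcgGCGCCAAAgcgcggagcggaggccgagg
GINS2, chr16:85688958-85689005 (- strand): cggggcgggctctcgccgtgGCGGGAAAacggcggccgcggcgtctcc
GINS3, chr16:58392446-58392493 (+ strand): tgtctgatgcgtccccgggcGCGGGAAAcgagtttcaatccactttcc
PCNA, chr20:5126654-5126701 (- strand): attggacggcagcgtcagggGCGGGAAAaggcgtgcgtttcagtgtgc
TIPIN, chr15:66356720-66356771 (- strand): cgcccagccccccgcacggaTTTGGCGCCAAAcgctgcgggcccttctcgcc

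**Figure D2:**
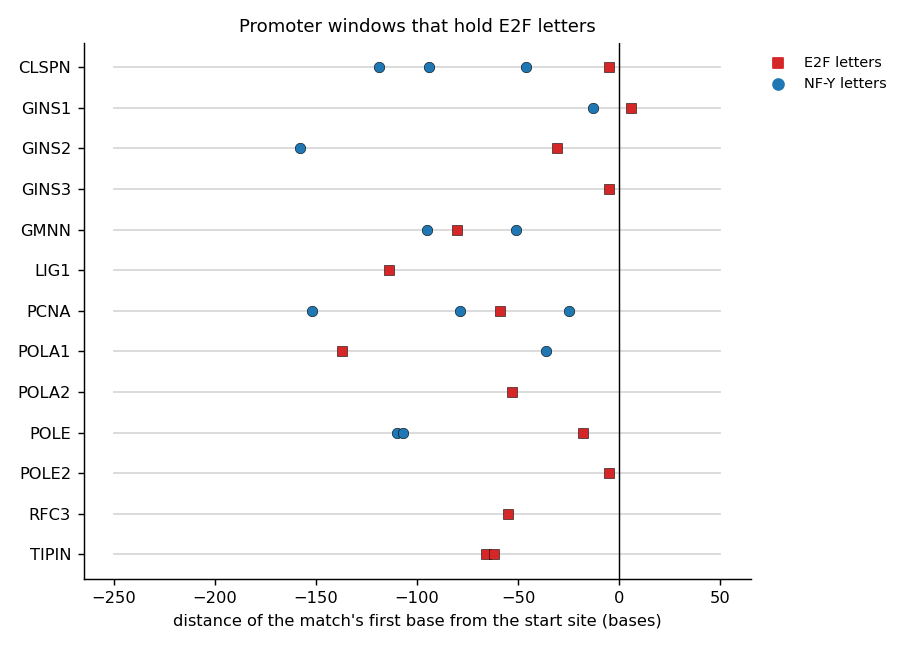
Positions of E2F, NF-Y and CHR letters in the promoter windows of the 13 members that hold E2F letters; the x axis is the distance in bases of the match's first base from the start site, and the grey line spans the window. Most E2F matches lie within 100 bases before the start site, and no CHR match is present in these windows.

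Subunits of the polymerases fell unevenly. Polymerase alpha and primase make the primers. In the authors' deposited table POLA1, the catalytic subunit, stood at -1.49 ± 0.0809 and its partner POLA2 at -1.48 ± 0.077. PRIM1, which carries the primase active site, was lower at -1.84 ± 0.078 in the authors' deposited table, and PRIM2, the large primase subunit, stood at -0.83 ± 0.0774. The intervals of PRIM1 and PRIM2, -1.99 to -1.69 and -0.98 to -0.68, did not overlap. RefSeq holds pseudogenes named after 10 members, among them PRIM2, PCNA, RPA2 and FEN1, and none of these copies was listed. The sources used here do not give how reads shared with them were counted.

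Polymerase delta showed the widest spread of any complex once its small subunit is added. Its catalytic subunit POLD1 stood at -1.59 ± 0.278 and the accessory subunit POLD3 at -1.48 ± 0.0739 in the authors' deposited table. POLD2, the subunit that joins the others, stood at -0.76 ± 0.0764 in the authors' deposited table. POLD4, the smallest subunit, is not among the 40 members, and its RNA was higher with DEG-35. Its protein, which was not measured here, is known to be degraded after DNA damage. The log2 fold change of POLD4 RNA, 0.95 ± 0.094 in the authors' deposited table, is a 1.94-fold rise (adjusted p = 6.98e-23). In polymerase epsilon, the catalytic POLE and its partner POLE2 fell together, at -1.70 ± 0.0763 and -1.89 ± 0.102 in the authors' deposited table. The histone-fold pair of that enzyme fell less, with POLE3 at -0.62 and POLE4 at -0.43 ± 0.0956 in the authors' deposited table. POLE3 is also known as a subunit of chromatin remodelling and histone acetyltransferase complexes.

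The members of the clamp and its loaders were all lower. PCNA, the sliding clamp, stood at -1.26 ± 0.0564 in the authors' deposited table, the smallest implied SE of any member and a 2.4-fold lower level. Of the RFC subunits, RFC5 (-1.78 ± 0.0772), RFC3 (-1.65 ± 0.0704) and RFC4 (-1.59 ± 0.0833) had overlapping intervals in the authors' deposited table. RFC2 stood at -1.32 ± 0.0848, and RFC1, the large subunit found only in the PCNA loader, at -0.92 ± 0.0726 in the authors' deposited table. RFC2 to RFC5 also serve in the other loaders, and the interval of each lay below that of RFC1. The exons of RFC4 overlap those of EIF4A2 on the opposite strand, which was higher at 0.41 in the authors' deposited table. DSCC1 and CHTF18, of the alternative loader that acts in sister chromatid cohesion, stood at -2.18 ± 0.093 and -1.71 ± 0.333 in the authors' deposited table. CHTF8, their small partner outside the 40 members, stood at -0.18 ± 0.0605 there, and would turn higher with all fold changes shifted up by 0.3 and lose its call with Bonferroni adjustment.

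The enzymes that finish Okazaki fragments were all lower. FEN1, the flap endonuclease, stood at -1.97 ± 0.0634 in the authors' deposited table, with an adjusted p of 1.72e-208. DNA2, which cuts long flaps, at -1.73 ± 0.0895 and LIG1, which seals the nicks, at -1.68 ± 0.085 followed in the authors' deposited table, and their intervals overlapped. In GENCODE 29, an exon of FADS2 on the same strand and one of TMEM258 on the other overlap FEN1. The authors' deposited table gives FADS2 at -2.69 and TMEM258 at -0.32, and whether reads of these genes entered the FEN1 value was not tested. RNASEH2A, the catalytic subunit of the enzyme that removes RNA from DNA, stood at -1.59 ± 0.0742 in the authors' deposited table. Its partners outside the 40 members, RNASEH2B at -0.45 ± 0.0624 and RNASEH2C at -0.44 ± 0.0907 in the same authors' deposited table, had intervals that did not reach that of RNASEH2A.

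GINS, the 4-subunit part of the helicase, had a median of -2.01. GINS2 and GINS1 stood at -2.28 ± 0.108 and -2.22 ± 0.0824 in the authors' deposited table, levels 4.85-fold and 4.66-fold lower. GINS3 and GINS4 stood at -1.79 ± 0.0899 and -1.78 ± 0.078 in the authors' deposited table. The intervals of the 4 subunits spanned -2.49 to -1.61, and those of GINS2 and GINS4 did not overlap. RPA, the heterotrimer that coats single-stranded DNA in replication and in repair, had the highest median of all groups, -0.95. RPA3, the smallest subunit, stood at -1.36 ± 0.097, RPA1, which holds most of the DNA contacts, at -0.95 ± 0.0619, and RPA2, the subunit phosphorylated under damage, at -0.68 ± 0.0689 in the authors' deposited table. RPA3 has exons overlapped by UMAD1 on the opposite strand, a gene that was not listed.

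Fork protection genes were lower, and unequally so. CLSPN encodes claspin, the adaptor through which ATR activates CHK1, and stood at -2.14 ± 0.0846 in the authors' deposited table. WDHD1, which links polymerase alpha to the helicase, at -1.83 ± 0.0827 and TIMELESS at -1.79 ± 0.0611 lay close together in the authors' deposited table. TIPIN, whose protein forms a complex with that of TIMELESS, stood at -1.35 ± 0.109 in the authors' deposited table. The intervals of TIPIN and TIMELESS, -1.57 to -1.14 and -1.91 to -1.67, did not overlap. The origin genes ORC6 and ORC1 stood at -2.19 ± 0.096 and -2.13 ± 0.0753 in the authors' deposited table. GMNN, the geminin gene, whose product blocks relicensing, stood at -1.68 ± 0.0712 there. Of the other origin recognition subunits, ORC3 was listed at -0.84 ± 0.08 in the authors' deposited table, and ORC2, ORC4 and ORC5 were not listed, having missed the threshold or not been tested. The ORC1 protein, which was not measured here, is known to be made and degraded within each cell cycle, while the core subunits persist.

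Of the 4 histone chaperone genes 3 were listed, all of them lower. ASF1B, the ASF1 form tied to proliferating cells, was 5.38-fold lower (adjusted p = 1.79e-211 in the authors' deposited table). ASF1A, the other paralog, which also serves replication-independent deposition, was the 1 member not listed. It either missed the threshold or was not tested, and no size of change can be given for it. The large CAF-1 subunits CHAF1B and CHAF1A stood at -2.05 ± 0.086 and -1.91 ± 0.074 in the authors' deposited table, and their intervals overlapped. RBBP4, the third CAF-1 subunit, shared with many chromatin complexes, stood at -0.35 ± 0.0615 there and is not among the 40 members. The ASF1A window, shown against that of ASF1B above, has 1 NF-Y match downstream of the start site and neither E2F nor CHR letters (GRCh38.p14, capitals as before).
ASF1A, chr6:118893902-118894201 (+ strand): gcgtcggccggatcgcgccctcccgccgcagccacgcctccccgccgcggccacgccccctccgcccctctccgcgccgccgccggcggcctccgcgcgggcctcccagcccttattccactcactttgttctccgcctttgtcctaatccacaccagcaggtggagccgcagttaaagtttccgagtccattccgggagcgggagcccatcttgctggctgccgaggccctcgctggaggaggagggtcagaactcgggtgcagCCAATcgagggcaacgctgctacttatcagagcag

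**Figure D3:**
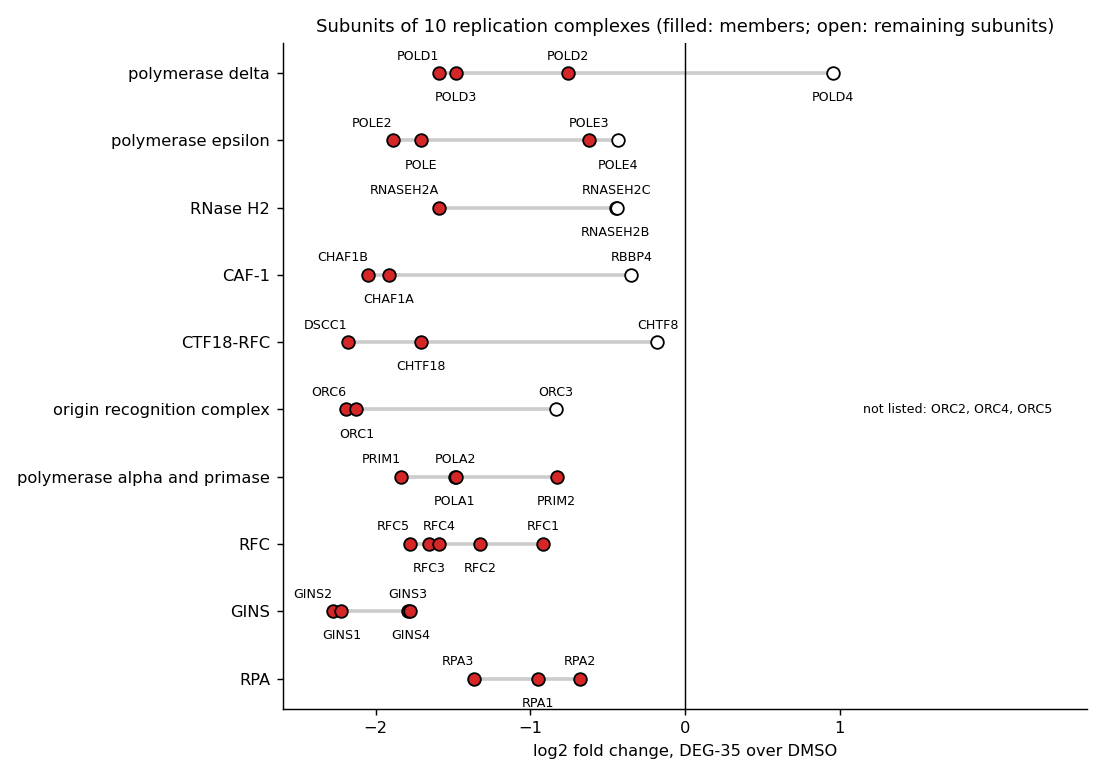
Log2 fold change, DEG-35 over DMSO (x axis), of listed subunits of 10 replication complexes (rows) in the authors' deposited table. Filled points are members and open points the subunits outside the 40. RFC2 to RFC5, which also serve in the other loaders, appear in the RFC row only. Subunits of a complex are spread apart, with POLD4 alone right of 0 and ORC2, ORC4 and ORC5 not listed.

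In all 10 of these complexes the intervals of the listed subunits with the lowest and the highest fold change did not overlap. ORC2, ORC4 and ORC5 have no value to compare, and POLD4 was higher. The gap was widest in polymerase delta, 2.54 on the log2 scale between POLD1 and POLD4, and narrowest in GINS, 0.50 between GINS2 and GINS4. Within the members alone it was widest in polymerase epsilon, 1.27 between POLE2 and POLE3. The pairs were picked as extremes, so the gaps describe the table and were not tested. The remaining subunits are those that the choice of the 40 left out with results in view, so their smaller falls are no separate finding.

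Precision was uneven among the members. For 37 of 39 the implied SE lay between 0.0564 and 0.109, with a median over all 39 of 0.078, against 0.0891 for all listed genes. POLD1 and CHTF18 were the exceptions, with intervals of -2.14 to -1.05 and -2.36 to -1.05 in values from the authors' deposited table. They also have the most GC-rich transcripts of the 39, 64.97% and 69.1% GC in the longest coding transcript of GENCODE 29, where the next is POLD2 at 59.1%. CHTF18 exons overlap GNG13 (-1.30 in the authors' deposited table) and RPUSD1 (not listed) on the opposite strand. POLD1 exons overlap AC020909.1 (not listed) on the same strand. Neither overlap was tested as a source of the spread. In all, 15 members have exons that overlap another gene, 13 of them on the opposite strand and 4 on the same strand, some on both. The sources used here do not give whether reads were counted by strand, or how reads shared on 1 strand were counted.

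**Figure D4:**
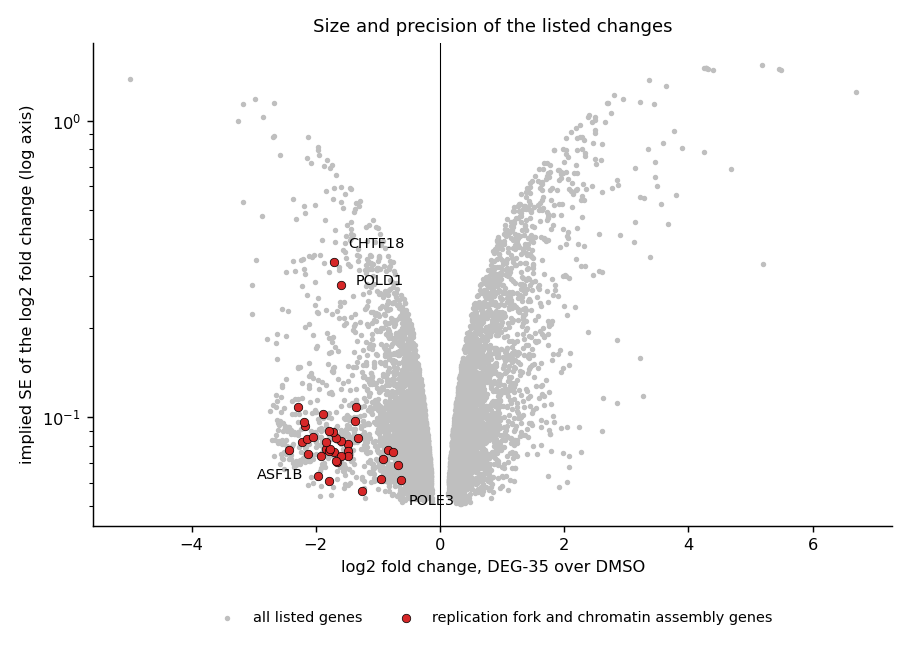
Log2 fold change, DEG-35 over DMSO (x axis), against its implied SE (y axis, log scale) for all listed genes of the authors' deposited table in grey, 3 genes with a p of 0 left out, and the 39 listed members in red. The members form a tight group at small SEs on the left, and CHTF18 and POLD1 stand above it.

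Genes of the same pathway outside the 40 were counted in 6 lists, whose choice was likewise made with earlier results known. Their counts stand beside 24% of all tested genes listed as lower and 21.4% as higher. The helicase and origin firing factors fell with the members: all 17 passed and stood below 0, with a median of -1.96. CDC45 of the helicase stood at -2.46 ± 0.08, MCM10, which activates it, at -2.55 ± 0.0731, and the ring subunit MCM7 at -1.91 ± 0.0585 in the authors' deposited table. MCM4 stood at -2.08 there with a p of 0, so no SE could be had.

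Clamp partners and modifiers were lower in 12 of 14 cases, with a median of -1.53 over the 13 listed. The exonuclease gene EXO1 stood at -2.41 ± 0.076, DTL, a ubiquitin ligase adaptor that acts on PCNA-bound proteins, at -2.08 ± 0.0726, ATAD5, the PCNA unloader, at -1.81 ± 0.0727 and the maintenance methyltransferase DNMT1 at -1.55 ± 0.0575 in the authors' deposited table. LIG3, a ligase of repair and of mitochondria, was higher at 0.20 ± 0.0676 there (adjusted p = 0.00692), and would be lower with all fold changes shifted down by 0.3.

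Other histone chaperones were mixed. Of 20, 14 were lower and 2 higher, with a median of -0.85 over the 16 listed. HJURP, the chaperone of the centromeric histone, stood at -2.52 ± 0.0904, MMS22L at -1.71 ± 0.0732, DNAJC9 at -1.56 ± 0.0659 and NASP, which stores H3 and H4, at -1.26 ± 0.062 in the authors' deposited table. ATRX, which deposits H3.3 at repeats, was higher at 0.54 ± 0.0732, and SUPT6H, a transcription elongation factor, at 0.29 ± 0.057 in the authors' deposited table, the second turning lower with the same downward shift.

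Checkpoint and remodelling genes were lower in 8 of 14 cases and higher in 1, with a median of -0.61 over the 9 listed. CHEK1, the kinase that claspin helps activate, stood at -2.29 ± 0.0872, the helicase BLM at -1.60 ± 0.0718, RAD1 of the checkpoint clamp at -0.98 ± 0.0691 and RECQL at -0.61 ± 0.0726 in the authors' deposited table. SMARCAL1, which reverses stalled forks, was higher at 0.22 ± 0.0823 there (adjusted p = 0.017), and lower under the downward shift. It loses its call at an adjusted p below 0.01, which leaves 7 genes of this list, all lower. ATR was not listed.

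DNA polymerases outside the replisome went both ways. Of 14, 6 were higher and 5 lower, beside 21.4% and 24% of all tested genes, with a median of 0.30 over the 11 listed. POLH, a translesion polymerase and a known p53 target gene, was 1.73-fold higher (0.79 ± 0.073, adjusted p = 9.64e-26), and POLL, an end-joining polymerase, stood at 0.61 ± 0.0896 in the authors' deposited table. POLQ, of an error-prone end-joining pathway, was lower at -2.39 ± 0.0879 in the authors' deposited table. MAD2L2, a subunit of polymerase zeta, at -0.76 ± 0.0855 and PRIMPOL, which reprimes stalled forks, at -0.72 ± 0.109 were lower there as well. REV1 and the mitochondrial POLG stood at -0.28 ± 0.0794 and -0.18 ± 0.0646 in the authors' deposited table, and both would turn higher with all fold changes shifted up by 0.3. POLG (adjusted p = 0.0114 as the authors' deposited table gives it) loses its call at an adjusted p below 0.01. The list of subunits left out of the 40, described above by complex, had 7 of 10 listed, 6 lower and 1 higher, with a median of -0.43.

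**Figure D5:**
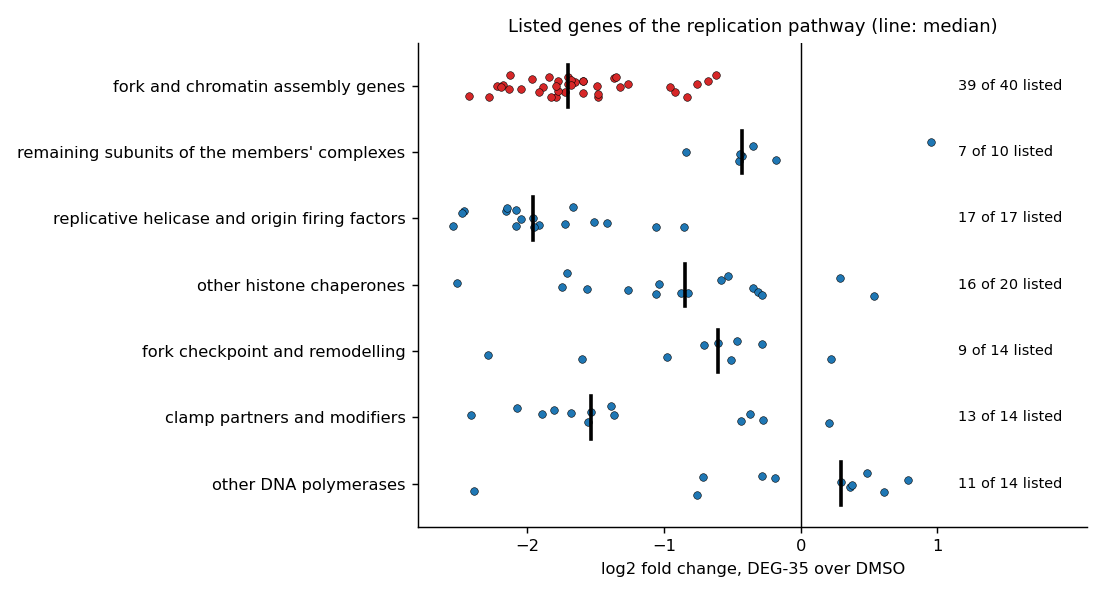
Log2 fold change, DEG-35 over DMSO (x axis), of listed genes in the authors' deposited table for the fork and chromatin assembly genes (red) and 6 other lists of the pathway (blue), 1 point per gene, with the median as a black line and the number listed at the right. Fork genes and helicase factors lie wholly left of 0, and the other DNA polymerases lie on both sides.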

How the data were processed

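MOLM-13 cells were treated for 24 h with 50 nM DEG-35 or DMSO, and per the labels' protocols a SMARTer mRNA kit was used to make 3 libraries per group. The submitters' processing notes name the build hg19 and STAR, featureCounts and DESeq2, without versions or options. The 1 file is a table that the authors deposited and gives per gene its log2 fold change with p-values before and after adjustment, none of the adjusted ones reaching 0.05. For the 2789 genes with p above 1e-04, adjusted p times rank over p lay within 0.0413% of 15064, as Benjamini-Hochberg adjustment over that many genes gives. No gene could be tested anew, so the authors' adjusted p was used at a threshold of 0.05.

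The implied SE is the absolute log2 fold change over the normal quantile of the two-sided p, which assumes a Wald test. Its code and the recovery of the number of tests were run on data simulated with a Wald test and Benjamini-Hochberg adjustment. That run checks the arithmetic only, and cannot show that the authors' p-values meet the assumption. The members and all lists were chosen with earlier results of these data known. The genes named are the members, and of each other list the 4 with the smallest adjusted p and those against its majority, with all listed subunits left out of the members. Members were matched by exact symbol, and other lists through RefSeq synonyms as well (6269 table symbols matched directly, 429 by synonym, 133 not). The proteins that the plan named were not used here. The ASF1A window and the E2F stretches were chosen for display after their values were seen. Alternatives were stricter thresholds, other adjustments, an implied SE limit of 0.2 and a shift of all fold changes by 0.3. Software was SciPy 1.17.1, NumPy 2.4.6 and pandas 2.3.3 under Python 3.11.15, with Matplotlib 3.10.9 for figures.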

Additional observations from a re-analysis of the deposited data

How the results depend on the processing

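The 39 member calls held with an adjusted p below 0.01 and with Bonferroni adjustment over 15064 tests. Shifting all log2 fold changes by 0.3 either way could turn no member round, since the least lowered, POLE3, stood at -0.62. Benjamini-Hochberg adjustment over the table alone and RefSeq synonyms could remove no call by construction, and added none. With a minimum change of 1 there were 33, and with an implied SE of at most 0.2 there were 37, without POLD1 and CHTF18. The members' median moved to -2.005 and -1.40 with the shift down and up, by construction. In the other lists, a minimum change of 1 left 0 of the remaining subunits, 7 histone chaperones, 2 checkpoint genes and 1 of the other polymerases, of which Bonferroni adjustment over 15064 tests left 6, 3 of them lower. An adjusted p below 0.01 took the call from SMARCAL1 and POLG among the genes named, and Bonferroni adjustment from these and from POLE4, CHTF8, LIG3 and REV1. The shift up left 3 of the 11 listed other polymerases lower and turned CHTF8 to 0.12, REV1 to 0.02 (0.0179) and POLG to 0.12. The shift down turned SUPT6H to -0.01 (-0.0102), SMARCAL1 to -0.08 (-0.0768) and LIG3 to -0.10 (-0.095). Shifting moved listed genes without changing which genes are listed. No paired analysis was possible because the table has no values per library, and for the same reason no replicate could be left out and no normalization or count filter tried. Unlisted genes have no p-value here, so the absence of ASF1A says nothing of how large its change was.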

Other observations

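The imprecision of POLD1 and CHTF18 had company among other listed genes with GC-rich transcripts. Of 628 listed genes whose longest coding transcript in GENCODE 29 has from 60 to 65% GC, 132 (21%) had an implied SE above 0.2, and of 182 with 65% GC or more, 77 (42.3%) did. The share was 6.2% of 951 genes below 40% GC, 6.73% of 2377 from 40 to 50% and 10.6% of 1903 from 50 to 60%. A GC value was had for 88.5% of the 6831 listed genes. A gene with an implied SE above 0.2 is listed only if its fold change is large enough to pass the threshold. These shares therefore also depend on the size of the changes in each band, and are not rates over all tested genes. Among the other pathway genes an implied SE above 0.2 was found for CDT1 (64.9% GC), RECQL4 (65.5%) and TONSL (65.7%), genes named here after their values were seen. They stood at -2.15 ± 0.259, -1.96 ± 0.252 and -1.74 ± 0.223 in the authors' deposited table. The GC content of the other pathway genes with smaller SEs was not compared with theirs. Gene levels, which also set the SE, are not in the table, and the part that GC content has in these values was not tested.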
